A study of Homo sapiens with 8 samples.

Results

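Autophagy genes were examined in A549 cells exposed to an ethanol extract of Descurainia sophia seeds (EEDS) or to helveticoside. The genes were a fixed list of 37 symbols covering the core machinery that builds the autophagosome, the cargo receptors and the regulator TFEB. Probes were assigned through the transcript accession printed beside each probe, and 36 of the 37 genes were matched, among 19056 genes matched on the array. NBR1, a cargo receptor related to SQSTM1, was not matched and has no value here. A549 is a human cell line derived from a lung adenocarcinoma, and helveticoside is a cardiac glycoside present in the seeds. Each agent had its own series of 4 arrays, a vehicle control and 3 doses. EEDS was given at 1.25, 5 and 20 µg/mL, and helveticoside at 3.75, 15 or 60 nM. RNA from 3 cultures was pooled on each array, so every dose had 1 array and no dose on its own has a p-value. All 8 groups were of this 1 line, with no genetic change or further agent stated, and the EEDS stock was dissolved in DMSO. Cells for the arrays were exposed for 24 h, although 48 h stands in the labels under a viability protocol.

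Macroautophagy encloses cytoplasm in a double membrane, the autophagosome, which then fuses with lysosomes. The ULK kinase complex starts the process, a class III phosphatidylinositol 3-kinase complex marks the membrane with lipid, and ATG9 vesicles with the ATG2 lipid transfer proteins and WIPI proteins feed its growth. A pair of ubiquitin-like conjugation systems then joins ATG12 to ATG5 and the ATG8 proteins of the LC3 and GABARAP families to phosphatidylethanolamine, and cargo receptors bind both cargo and ATG8 proteins. Transcript levels do not measure the flow of cargo through this route.

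The stretches of promoter before the start of the genes with the largest mean log2 ratio at both top doses are shown so that the members that moved can be set beside the letters upstream of them. Each is 250 bases that end just before the start of the transcript, written 5′ to 3′ on the gene's strand, from RefSeq with build GRCh38.p14. Of the 36 genes, 31 had an entry, and ATG4D had none. Capitals mark a match to 1 of the 4 motifs searched for on both strands. The motifs were the E-box CACGTG, which TFEB binds in a longer form, the cAMP response element TGACGTCA, the antioxidant response element core TGACNNNGC and the ATF4-type composite core TGATGNAA. The first 3 sequences belong to genes with higher signal, and the last pair to genes with lower signal.
GABARAPL1, chr12:10212627-10212876, plus strand: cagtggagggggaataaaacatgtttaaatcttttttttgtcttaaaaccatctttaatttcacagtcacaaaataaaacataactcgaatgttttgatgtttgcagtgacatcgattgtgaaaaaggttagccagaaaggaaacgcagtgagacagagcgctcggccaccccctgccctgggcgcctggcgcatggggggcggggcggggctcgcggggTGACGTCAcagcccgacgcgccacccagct
MAP1LC3B, chr16:87392086-87392335, plus strand: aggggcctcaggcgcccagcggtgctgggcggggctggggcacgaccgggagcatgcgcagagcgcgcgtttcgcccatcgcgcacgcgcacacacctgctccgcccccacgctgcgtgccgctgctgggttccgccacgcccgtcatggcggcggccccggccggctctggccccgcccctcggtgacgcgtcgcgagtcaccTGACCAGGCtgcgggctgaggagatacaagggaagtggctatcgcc
ATG12, chr5:115841566-115841815, minus strand: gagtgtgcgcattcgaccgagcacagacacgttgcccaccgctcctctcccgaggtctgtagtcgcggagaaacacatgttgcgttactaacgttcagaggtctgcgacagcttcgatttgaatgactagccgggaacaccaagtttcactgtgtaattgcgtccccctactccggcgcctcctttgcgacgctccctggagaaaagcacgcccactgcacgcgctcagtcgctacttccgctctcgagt
ATG4C, chr1:62783882-62784131, plus strand: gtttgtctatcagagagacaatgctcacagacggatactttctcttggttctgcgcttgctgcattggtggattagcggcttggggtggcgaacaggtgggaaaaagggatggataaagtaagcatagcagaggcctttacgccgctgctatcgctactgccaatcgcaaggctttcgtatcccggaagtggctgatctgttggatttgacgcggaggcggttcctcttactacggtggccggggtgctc
ATG10, chr5:81971773-81972022, plus strand: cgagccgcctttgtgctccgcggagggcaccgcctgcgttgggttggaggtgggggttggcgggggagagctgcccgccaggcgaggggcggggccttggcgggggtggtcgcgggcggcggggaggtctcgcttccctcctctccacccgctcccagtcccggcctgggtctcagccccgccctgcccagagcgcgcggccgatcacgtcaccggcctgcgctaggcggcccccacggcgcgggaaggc
The GABARAPL1 stretch held a cAMP response element at bases 221 to 228, which was found in 1 of the 40 promoters of the autophagy genes and in 1.65% of all 35116 promoters of the table. The MAP1LC3B stretch held an antioxidant response element core at bases 205 to 213, found in 2 of the 40 promoters, the other being that of ATG101, and in 10.9% of all promoters. The E-box lay in the promoters of ATG14 and ATG3, 2 of 40, against 6.34% of all promoters. The composite core was in none of the 40, and in 3.14% of all promoters. Neither capitalised match overlapped another motif. No match was found for ATG12, ATG4C or ATG10, which says only that these letters are not in this window.

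The line and the arrays were examined first. All 13 markers of A549 or epithelial cells that were on the array were well above background on all 8 arrays. Of 5 blood cell markers, PTPRC, CD79A and CD14 were detected on all arrays and CD3E and HBB on none, and the summed log2 intensity of the 5 ran from 11.67 to 12.93 in the EEDS series and from 12.34 to 13.35 in the helveticoside series, lower at the top dose than in the control in both. Of 5 endothelial and 6 fibroblast markers, 1 each (CDH5 and COL1A1) was detected on all arrays. On the 15 nM array alone TIE1 (log2 intensity 7.45) and COL3A1 (6.58) were detected as well. The fibroblast marker LUM was detected on 2 other arrays, with a log2 intensity of at most 5.15 on any array. Among the A549 markers CDH1 had 9.91 in the EEDS control and 7.21 at 20 µg/mL, and 9.69 and 6.98 in the helveticoside control and at 60 nM, and KRT19 had 14.94 and 13.04, and 14.71 and 13.0. The part of these marker signals in the results was not tested. In the EEDS series 63.3 to 64.9% of probes were well above background, and in the helveticoside series 54.5 to 59.5%, with no saturated spot. The arrays of each series lay along the scan in the order of dose, so that dose and place in the scan cannot be told apart, and neither can agent and array series. Between the vehicle controls of the 2 series, which differed in no stated treatment other than the series, AMBRA1 was over 2-fold lower in the helveticoside control (log2 ratio -1.23), where 4.64% of all genes were lower and 5.76% higher. ATG14 was not well above background in the helveticoside control, so no difference is read for it. The difference had an SD of 0.48 on the log2 scale over the other 35 genes. Over all genes, dim ones included, the SD was 0.65, and over the 11493 genes detected on every array it was 0.48. This difference between the controls is the only measure of the spread between untreated arrays.

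More autophagy transcripts were over 2-fold higher than lower after EEDS, and the number was larger at each higher dose. Against the EEDS control, 3 of 36 genes were over 2-fold higher at 1.25 µg/mL (all genes, 4.22%), 7 at 5 µg/mL (all genes, 7.33%) and 12 at 20 µg/mL (all genes, 13.3%). No gene was over 2-fold lower at 1.25 or 5 µg/mL, where 3.66% and 8.47% of all genes were, and 4 were at 20 µg/mL (all genes, 14.5%). The 12 higher genes were ULK1, ATG101, RB1CC1, ATG14, ATG9A, ATG4D, ATG12, MAP1LC3A, MAP1LC3B, GABARAPL1, SQSTM1 and TAX1BP1, and the 4 lower genes were ULK2, WIPI1, ATG4C and ATG10. The median log2 ratio of the 36 genes was 0.08, 0.16 and 0.45 at the rising doses, against 0.01, 0.01 and 0.02 over all genes. The 3 doses share 1 control array. Equal amounts of RNA from the cultures were pooled and the arrays normalized, so the ratios measure neither cell number nor RNA per cell. The paper reports that each agent inhibited the growth of A549 cells at concentrations below its top dose. The part of growth inhibition in the ratios was not tested.

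After helveticoside no gene of the list was over 2-fold from control at 3.75 nM, where 3.38% of all genes were higher and 4.3% lower. At 15 nM 5 genes were over 2-fold higher (all genes, 7.08%) and none lower (all genes, 8.06%). At 60 nM 7 were higher (all genes, 10.8%) and 3 lower (all genes, 12.8%). The 7 higher genes, ULK1, ATG9A, ATG4D, ATG12, MAP1LC3A, MAP1LC3B and GABARAPL1, and the 3 lower genes, ULK2, ATG4C and ATG10, were all called in the same direction at 20 µg/mL EEDS. The share of all genes called in the same direction at both top doses was not counted. The overlap is therefore not read as particular to these genes. The median log2 ratio of the 36 genes was 0.06, 0.20 and 0.31 at the rising doses, against 0.01, -0.04 and -0.00 over all genes. The lower share of called genes was near or under the background at the top dose of each agent, and the higher share was above it.

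**Figure D1:**
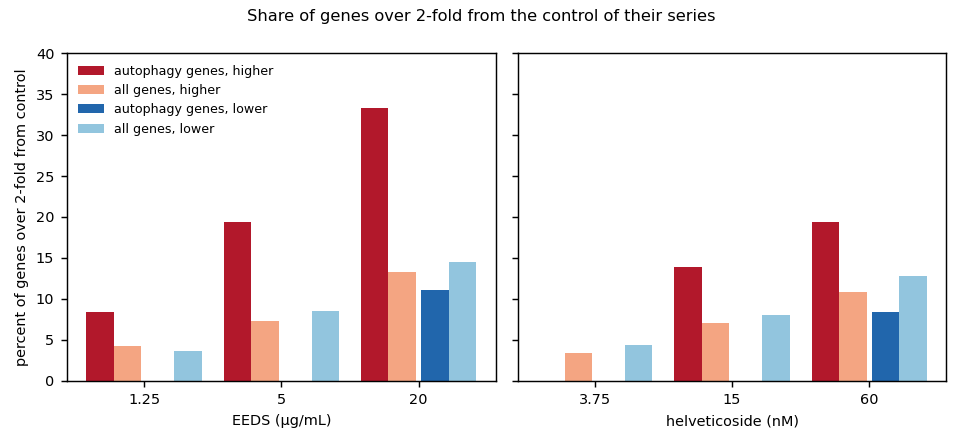
Percent of genes over 2-fold from the control of their series (vertical axis) at each dose (horizontal axes, EEDS in µg/mL and helveticoside in nM), for the 36 autophagy genes (dark bars) and all genes (pale bars), higher in red and lower in blue, 1 array per dose. The share of autophagy genes that were higher reaches 33.3% at 20 µg/mL EEDS and 19.4% at 60 nM helveticoside, against 13.3% and 10.8% of all genes.

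**Figure D2:**
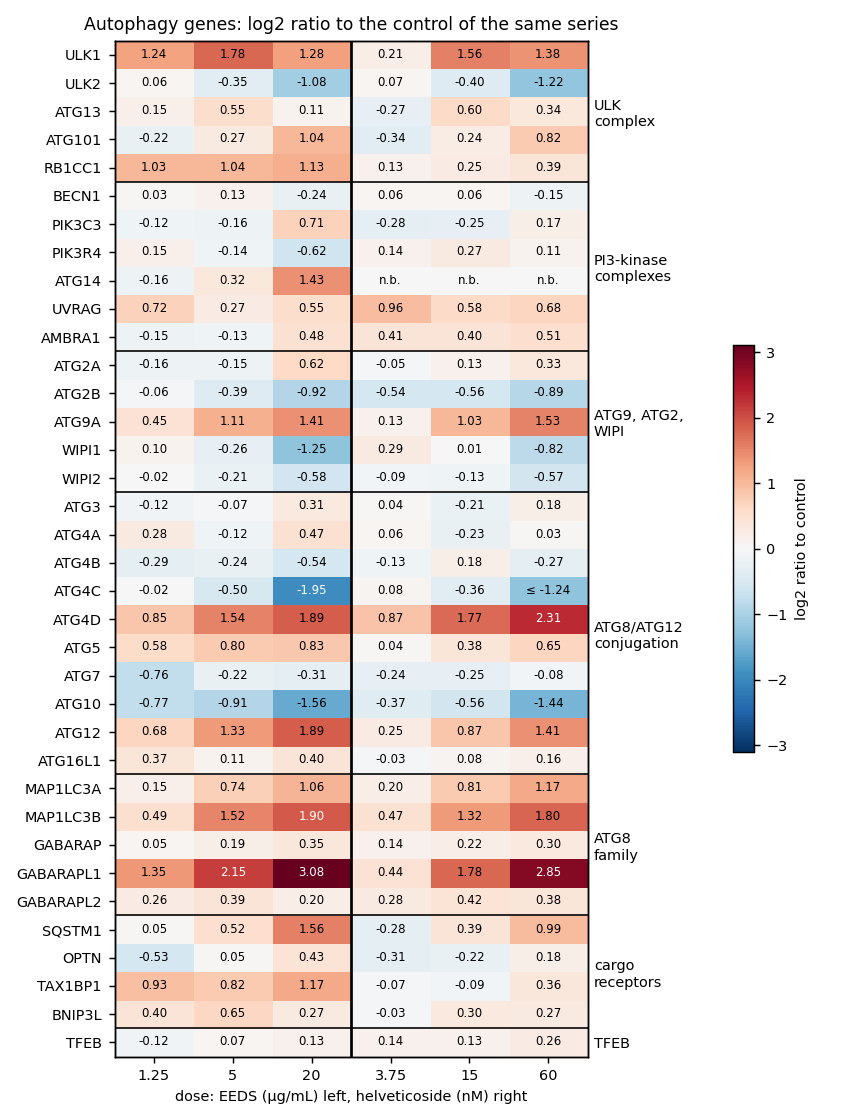
Log2 ratio to the vehicle control of the same series for the 36 genes (rows, grouped by role) at the 3 EEDS doses and the 3 helveticoside doses (columns), red higher and blue lower, 1 array per dose. GABARAPL1 has the largest ratio in both series (3.08 and 2.85 at the top doses) and ATG4C the lowest at 20 µg/mL EEDS (-1.95). The cells marked n.b. for ATG14 were not well above background, and ATG4C at 60 nM is a bound.

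The dose trend was tested as the slope of log2 intensity over the dose steps 0, 1, 2 and 3 (control to top dose, each dose 4 times the one before), by limma over all 8 arrays with Benjamini-Hochberg adjustment over 19046 genes. The same 6 genes rose with both agents, namely ATG9A, ATG4D, ATG12, MAP1LC3A, MAP1LC3B and GABARAPL1, where 7.27% of all genes rose with EEDS and 5.48% with helveticoside. The share of all genes that rose with both agents past the threshold was not counted. Both slopes of a gene came from the same fit and share an estimate of the spread. The calls with EEDS and with helveticoside are therefore not independent. ATG10 and ATG2B fell with EEDS (all genes, 7.85%), and ATG10 alone fell with helveticoside (all genes, 5.8%). These shares of all genes include dim genes. Where only genes detected both untreated and at the highest dose were tested, 13.6% rose and 14.6% fell with EEDS. With helveticoside 11% of such genes rose and 11.8% fell. Of the autophagy genes 10 then rose and 3 fell with EEDS, and 6 rose and 2 fell with helveticoside. At an unadjusted p under 0.05, 20 genes had a slope with EEDS (all genes, 33.4%) and 15 with helveticoside (all genes, 29.8%). These calls rest on single arrays. The helveticoside calls rest among others on the 15 nM array, on which TIE1 and COL3A1 stood apart. Without the EEDS control or the 20 µg/mL array no gene of the array had an EEDS trend past the threshold, and the same held for helveticoside without the 15 or the 60 nM array. Without the 15 nM array the EEDS trends of ATG9A and MAP1LC3A were no longer called, and without the helveticoside control 2 of the 6 rising helveticoside calls were left, ATG12 and GABARAPL1. Without the 1.25 µg/mL array RB1CC1 and TAX1BP1 were added to the rising EEDS genes (8 calls), while the helveticoside call of ATG9A was lost, and that of MAP1LC3A was lost without the 5 µg/mL array. The fall of ATG2B, and that of ATG10 with helveticoside, was lost without any 1 of the 8 arrays. The fall of ATG10 with EEDS was lost without the EEDS control, the 20 µg/mL, the 3.75 nM or the 15 nM array. With only the 4 arrays of a series no gene of the array passed (5340 and 4936 genes at an unadjusted p under 0.05). The sign of each called slope was the same in each of these fits.

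**Figure D3:**
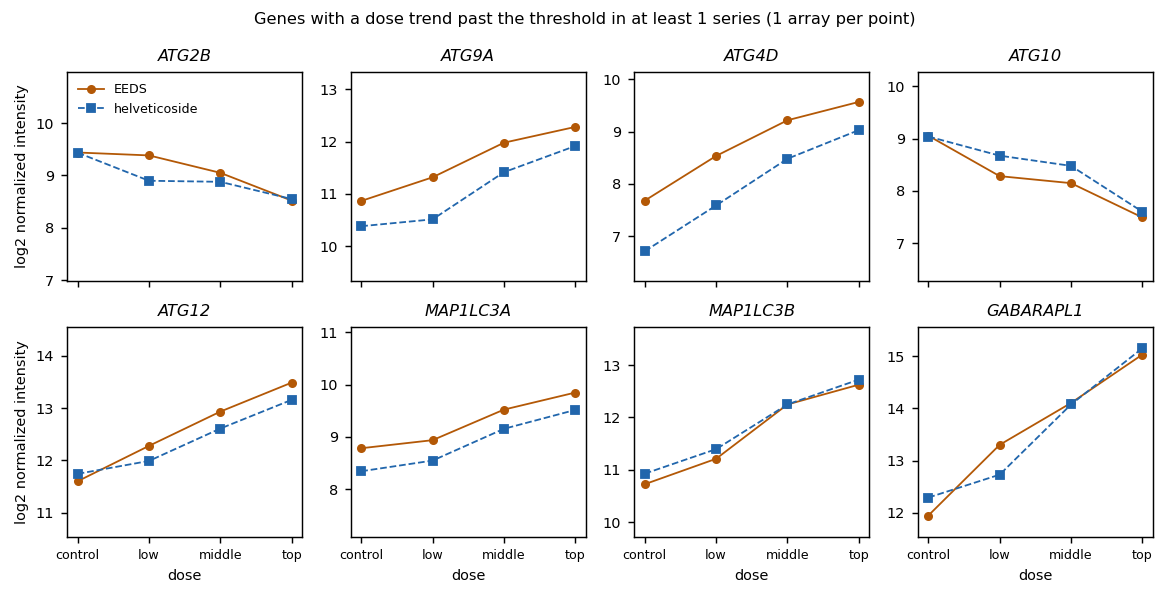
Log2 normalized intensity (vertical axes, each spanning 4 log2 units) of the 8 genes with a dose trend past the threshold in at least 1 series, against dose (control, then 1.25, 5 and 20 µg/mL EEDS or 3.75, 15 and 60 nM helveticoside), with EEDS as circles and helveticoside as squares, 1 array per point. ATG9A, ATG4D, ATG12, MAP1LC3A, MAP1LC3B and GABARAPL1 climb at every step in both series, and ATG10 and ATG2B descend at every step.

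Among the 36 genes, 9 were higher at every step in both series, where 6.97% of all genes were (19.3% with EEDS and 12.3% with helveticoside taken alone). They were RB1CC1, ATG9A, ATG4D, ATG5, ATG12, MAP1LC3A, MAP1LC3B, GABARAP and GABARAPL1. ATG2B, WIPI2 and ATG10, 3 genes, were lower at every step in both, where 6.6% of all genes were (13.3% and 11.7% taken alone). These orders are those of the brightest probe of each gene. The second ATG5 probe had log2 ratios of 0.91, 1.09 and 0.92 at the EEDS doses, so it was not higher at every step. The second WIPI2 probe had -0.29, -0.16 and -0.98 at the helveticoside doses, and the second ATG10 probe -0.54, -0.08 and -0.46 with EEDS. Neither was lower at every step. The difference between the slopes, helveticoside minus EEDS, ran from -0.23 for TAX1BP1 to 0.26 for PIK3R4 per step, with SEs from 0.045 to 0.30, leaving aside ATG14, which was not well above background with helveticoside. By limma it passed the threshold for none of the 36 genes and for 0 of 19046 genes (0% in each direction). At an unadjusted p under 0.05, 0 of the 36 genes and 525 of all genes (2.76%) differed in slope. With 4 residual degrees of freedom and these SEs, the lack of a call does not show that the slopes were equal. The doses of the agents are in different units and were not matched, so slopes per step compare the trends and not the potency.

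**Figure D4:**
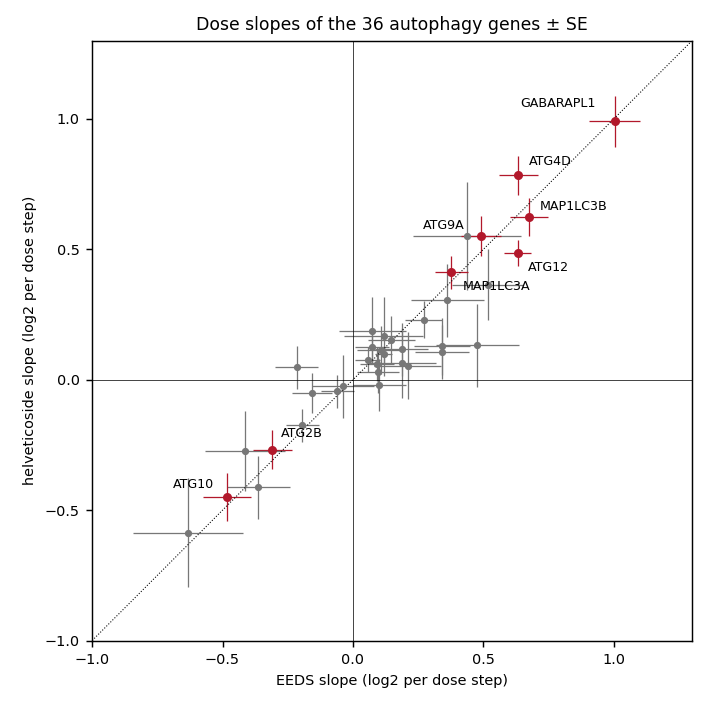
Slope of log2 intensity per dose step with EEDS (horizontal axis) and with helveticoside (vertical axis) for the 36 genes, bars showing 1 SE from the limma fit over 8 arrays, red where the trend passed the threshold in at least 1 series and the dotted line marking equal slopes. GABARAPL1 lies farthest from 0, at 1.0 and 0.99 per step, and ATG10 has -0.48 and -0.45. The helveticoside signals of ATG14 were not well above background.

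GABARAPL1, of the ATG8 family, had the largest log2 ratio at both top doses. These proteins are joined to the autophagosome membrane, where they take part in its growth and closure and in the binding of cargo. GABARAPL1 had log2 intensities of 11.95, 13.30, 14.10 and 15.03 from control to 20 µg/mL EEDS, and of 12.30, 12.73, 14.07 and 15.15 from control to 60 nM helveticoside. Each array was above the one at the dose before it, and the signal at the top dose was 8.44-fold that of the control with EEDS and 7.23-fold with helveticoside. Its slope was 1.0 ± 0.098 (SE, adjusted p = 0.0132) with EEDS and 0.99 ± 0.098 (adjusted p = 0.0165) with helveticoside, by limma. A second probe for GABARAPL1 gave log2 ratios of 3.21 and 3.28 at the top doses.

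MAP1LC3B encodes LC3B, the form commonly used to follow autophagosomes. Its log2 intensities were 10.73, 11.21, 12.25 and 12.63 with EEDS. In the helveticoside series they were 10.93, 11.40, 12.25 and 12.72. The arrays of each series followed the order of dose, and the ratio at the top dose was 3.74-fold with EEDS and 3.47-fold with helveticoside. By limma the slope was 0.67 ± 0.072 (adjusted p = 0.0132) and 0.62 ± 0.072 (adjusted p = 0.0175), and a second probe gave log2 ratios of 2.16 and 2.38. MAP1LC3B has a near-identical copy, MAP1LC3B2, and GABARAPL1 a related pseudogene, GABARAPL3, and whether the probes tell them apart was not tested. MAP1LC3A, which encodes LC3A, had a smaller difference, with log2 intensities of 8.78, 8.94, 9.52 and 9.85 across the EEDS arrays. Across the helveticoside arrays MAP1LC3A had 8.34, 8.55, 9.16 and 9.52. It too was higher at each step, 2.09-fold at 20 µg/mL and 2.25-fold at 60 nM, with slopes of 0.38 ± 0.064 (adjusted p = 0.0229) and 0.41 ± 0.064 (adjusted p = 0.0250) by limma. The 2-fold calls of MAP1LC3A ended in some settings, with log2 ratios of 0.96 and 0.89 with the scanned signal and with normexp correction. At 60 nM the log2 ratio of MAP1LC3A was 0.78 with the authors' values, where its helveticoside trend was not called, and 0.73 against the other series' control. The remaining members of the family lay near their controls. GABARAP had log2 ratios of 0.35 and 0.30 and GABARAPL2 of 0.20 and 0.38 at the top doses, and neither had a trend past the threshold. The 5 genes had ratios above 0 at all 6 doses, and 3 of 5 were over 2-fold higher at each top dose.

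The conjugation genes moved in both directions. ATG12 is the ubiquitin-like protein joined to ATG5. Its log2 intensities were 11.60, 12.28, 12.94 and 13.49 in the EEDS series and 11.75, 11.99, 12.61 and 13.16 in the helveticoside series. Every treated array exceeded the control and the dose before it, and the top dose was 3.69-fold above control with EEDS and 2.67-fold with helveticoside. The limma slope was 0.63 ± 0.051 (adjusted p = 0.0129) with EEDS and 0.49 ± 0.051 (adjusted p = 0.0165) with helveticoside. Its slope difference, -0.14 ± 0.072, had an unadjusted p of 0.0947.

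The 4 ATG4 proteases, which trim ATG8 proteins before they are joined to lipid and release them afterwards, did not move together. ATG4D had log2 intensities of 7.68, 8.53, 9.22 and 9.57 with EEDS and of 6.71, 7.59, 8.48 and 9.03 with helveticoside. Its probe was spotted 10 times on each array, with an SD between spots of 0.036 to 0.14 on the log2 scale. That SD covers the spread between spots of 1 array and not between cultures or arrays. ATG4D was 3.70-fold higher at 20 µg/mL and 4.97-fold higher at 60 nM, with slopes of 0.63 ± 0.076 (adjusted p = 0.0144) and 0.78 ± 0.076 (adjusted p = 0.0165) by limma. At 60 nM the log2 ratio of ATG4D, 2.31, was the highest of the settings tried, with 1.62 for the scanned signal and 1.41 for the authors' values. ATG4C ran the other way at the top doses, with log2 intensities of 7.45, 7.43, 6.95 and 5.50 in the EEDS series and of 6.72, 6.80, 6.36 and 4.91 in the helveticoside series. The lowest dose matched the control to within 0.1 log2 in both series, and only the top dose was over 2-fold away. ATG4C was 3.85-fold lower at 20 µg/mL EEDS, and at 60 nM, where it was not well above background, it was at least 2.37-fold lower. Its slopes of -0.63 and -0.59 did not pass the threshold (adjusted p = 0.10 and 0.13 by limma). Without background subtraction the log2 ratio of ATG4C was -1.06 at 20 µg/mL and -0.95 at 60 nM, and with normexp correction -1.1 and -0.95. Its log2 ratio at 20 µg/mL was -1.21 against the other series' control, and at 60 nM it was -0.82 with the authors' values and -0.88 with the mean of its probes. ATG4A lay near control, at 0.47 and 0.03. For ATG4B the brighter probe gave -0.54 and -0.27 and the other 0.85 and 0.81, so that no direction is given.

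ATG10, the enzyme that passes ATG12 to ATG5, fell while ATG12 itself rose. Its log2 intensities were 9.06, 8.28, 8.15 and 7.49 in the EEDS series and 9.04, 8.67, 8.48 and 7.60 in the helveticoside series. The 2 controls differed by less than 0.1 log2, and each treated array was below the one before it. ATG10 was 2.95-fold lower at 20 µg/mL and 2.71-fold lower at 60 nM. By limma the slope was -0.48 ± 0.092 (adjusted p = 0.0292) with EEDS and -0.45 ± 0.092 (adjusted p = 0.0396) with helveticoside. A dimmer ATG10 probe had log2 ratios of -0.54, -0.08 and -0.46 at the EEDS doses, not in the order of dose. That probe was not well above background with helveticoside. With the mean of its probes the EEDS trend of ATG10 was not called. Of the other conjugation genes, ATG5, the partner of ATG12, had 0.83 and 0.65 at the top doses and was higher at each step in both series, with adjusted p-values of 0.0603 and 0.101. A second ATG5 probe had 0.92 and 1.01 at the top doses and did not follow the order of dose with EEDS. ATG3 and ATG7, the enzymes that pass ATG8 proteins on, had 0.31 and 0.18, and -0.31 and -0.08, and the second ATG7 probe had the opposite sign. ATG16L1, which brings the ATG12 and ATG5 conjugate to the membrane, had 0.40 and 0.16.

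In the ULK complex, which receives signals from mTORC1 and AMPK, the paralogous kinases stood on opposite sides of control. ULK1 had log2 intensities of 11.56, 12.80, 13.34 and 12.83 with EEDS and of 11.39, 11.60, 12.95 and 12.77 with helveticoside. It was over 2-fold higher at all 3 EEDS doses and at the upper 2 helveticoside doses, and its highest array was the middle dose in both series. The top doses were 2.42-fold and 2.61-fold above control, and the slopes were not past the threshold (adjusted p = 0.211 and 0.149 by limma). ULK2 had 10.28, 10.33, 9.93 and 9.20 with EEDS and 10.03, 10.10, 9.63 and 8.81 with helveticoside. Only its top doses were over 2-fold away, 2.11-fold and 2.33-fold lower, and its adjusted p-values for the slope were 0.101 and 0.0879. A second ULK2 probe gave -1.31 and -1.17. The third ULK2 probe, not well above background on every array, had 2.23 with EEDS, and with the mean of all its probes the log2 ratio of ULK2 at 20 µg/mL was -0.05 and at 60 nM -0.79. ULK2 was also inside 2-fold at both top doses with the scanned signal (-0.89 and -0.96), with normexp correction (-0.90 and -0.97) and with the authors' values (-0.9999 and -0.88), and at 20 µg/mL against the other series' control (-0.83).

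ATG101 and RB1CC1 (FIP200) are scaffold members of the ULK complex. ATG101 had log2 intensities of 11.88, 11.66, 12.16 and 12.92 with EEDS and of 11.43, 11.09, 11.66 and 12.25 with helveticoside, lowest at the lowest dose and highest at the top dose in both. It was 2.06-fold higher at 20 µg/mL and 1.77-fold higher at 60 nM. RB1CC1 had 10.40, 11.43, 11.44 and 11.53 with EEDS, with all 3 treated arrays close together and the control apart. Its helveticoside values were 10.95, 11.09, 11.21 and 11.34, and the log2 ratio at 60 nM was 0.39. Set against the helveticoside control, the log2 ratio of RB1CC1 at 20 µg/mL EEDS was 0.58, so its 2-fold call rests on the EEDS control array. ATG13, the remaining subunit, had log2 ratios of 0.11 and 0.34 at the top doses. None of the 5 ULK complex genes had a slope past the threshold.

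Genes of the class III phosphatidylinositol 3-kinase complexes lay nearer control, with 1 of 6 over 2-fold. BECN1 (Beclin 1) had log2 ratios of -0.24 at 20 µg/mL and -0.15 at 60 nM. The lipid kinase PIK3C3 (VPS34) had 0.71 and 0.17, its partner PIK3R4 -0.62 and 0.11, UVRAG 0.55 and 0.68, and AMBRA1 0.48 and 0.51. ATG14, which directs the complex to autophagy, had log2 intensities of 5.39, 5.23, 5.71 and 6.82 with EEDS, 2.69-fold higher at 20 µg/mL than in the control. Without background subtraction the log2 ratio of ATG14 was 0.60, and in the helveticoside series, with 3.41, 3.64, 3.32 and 3.96, it was not well above background on any array and has no fold.

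ATG9A, the scramblase of the vesicles that seed the autophagosome, rose with both agents. It had log2 intensities of 10.87, 11.32, 11.98 and 12.28 in the EEDS series and of 10.38, 10.51, 11.42 and 11.92 in the helveticoside series. The order of the arrays was that of dose in both, and the top doses were 2.67-fold and 2.89-fold above control. By limma the slope was 0.49 ± 0.077 (adjusted p = 0.0200) with EEDS and 0.55 ± 0.077 (adjusted p = 0.0212) with helveticoside, and a second probe gave 1.78 and 1.74. The lipid transfer gene ATG2B had 9.44, 9.38, 9.05 and 8.52 with EEDS and 9.43, 8.90, 8.88 and 8.55 with helveticoside. ATG2B stayed inside 2-fold, and its slope of -0.31 ± 0.075 with EEDS was just past the threshold (adjusted p = 0.0496) while that of -0.27 ± 0.075 with helveticoside was not (adjusted p = 0.0796). The slope difference of ATG2B was 0.04 ± 0.11, with an unadjusted p of 0.711. Its paralog ATG2A had log2 ratios of 0.62 and 0.33, on the other side of control.

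WIPI1 and WIPI2 bind the lipid made by the PIK3C3 complex. WIPI1 had log2 intensities of 11.29, 11.39, 11.03 and 10.03 with EEDS and of 11.07, 11.36, 11.09 and 10.25 with helveticoside. The lowest dose was above control and the top dose below it in both series, 2.39-fold lower at 20 µg/mL and 1.76-fold lower at 60 nM, and the slopes were not past the threshold (adjusted p = 0.129 and 0.319). WIPI2 had log2 ratios of -0.58 and -0.57 at the top doses, and -1.34 and -0.98 on its dimmer probe, with adjusted p-values for the slope of 0.0942 and 0.134.

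Of the 4 cargo receptors, 2 were over 2-fold higher at 20 µg/mL EEDS and none at 60 nM helveticoside, and no slope or slope difference passed the threshold. SQSTM1 (p62), which binds ubiquitinated cargo, had log2 intensities of 15.15, 15.19, 15.67 and 16.71 in the EEDS series, 2.96-fold higher at 20 µg/mL. In the helveticoside series SQSTM1 had 14.50, 14.22, 14.90 and 15.49, 1.99-fold higher at 60 nM. Its arrays followed the order of dose with EEDS, while the 3.75 nM array lay below the helveticoside control, and the slopes of 0.52 and 0.36 had adjusted p-values of 0.0601 and 0.147 by limma. With 75th percentile scaling the EEDS trend of SQSTM1 passed the threshold, as it did in 4 other settings. TAX1BP1 had 13.06, 14.00, 13.88 and 14.24 with EEDS and 13.89, 13.82, 13.81 and 14.25 with helveticoside. The EEDS control was the low array, and the 5 other arrays outside the top doses lay within 0.2 log2 of each other. TAX1BP1 was 2.26-fold above its own control at 20 µg/mL, but against the other series' control its log2 ratio was 0.35 at 20 µg/mL and 1.19 at 60 nM. OPTN had log2 ratios of 0.43 and 0.18 and the mitophagy receptor BNIP3L (NIX) of 0.27 and 0.27. The slope difference of TAX1BP1, -0.23 ± 0.15, had an unadjusted p of 0.167, and that of SQSTM1, -0.15 ± 0.19, of 0.463.

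TFEB, a transcription factor of autophagy and lysosome genes, stayed inside 2-fold at all doses. Its brighter probe had log2 ratios from -0.12 to 0.13 with EEDS and from 0.13 to 0.26 with helveticoside. A second TFEB probe had 0.46, 0.39 and 0.41 at the EEDS doses and 0.65, 0.32 and 0.35 at the helveticoside doses. Probes were compared where a gene had several. Of the 14 genes with at least 2 probes well above background in the controls and at the top doses, the probes had the same sign for 12 at 20 µg/mL and for 11 at 60 nM. The exceptions were ATG4B and ATG7 in both series and ATG16L1 with helveticoside.

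Genes that surround the core machinery were taken as lists, 131 genes on the array in all, of which 21 rose and 9 fell with EEDS and 15 rose and 9 fell with helveticoside. Over all genes, dim ones included, 7.27% rose and 7.85% fell with EEDS, and 5.48% and 5.8% with helveticoside. Where only genes detected in the control and at the top dose were tested, 13.6% rose and 14.6% fell with EEDS. With helveticoside 11% of such genes rose and 11.8% fell. The counts of each list that follows are to be read beside both sets of shares, and the lists were not counted with that filter. Among 8 transcription factors linked to autophagy genes, DDIT3 (CHOP) and MITF rose with EEDS and MITF with helveticoside. MITF, a relative of TFEB, had log2 ratios of 0.86, 1.29 and 1.86 at the EEDS doses and 0.40, 1.23 and 1.74 at the helveticoside doses (adjusted p = 0.0132 and 0.0165 by limma). DDIT3 had 1.32, 2.5 and 4.79 with EEDS and -0.69, 2.57 and 3.02 with helveticoside, where the trend had an adjusted p of 0.0710. Among 29 genes of mTORC1 and AMPK control, upstream of ULK1, 7 rose and 3 fell with EEDS, and 5 rose and 4 fell with helveticoside. FNIP1, a partner of folliculin, had 2.70 and 1.98 at the top doses, PRKAB1, an AMPK subunit, 2.33 and 2.20, and LAMTOR3, a Ragulator subunit, 2.34 and 2.08, and the trend of each passed the threshold in both series.

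Of 28 lysosomal genes, 4 rose and 1 fell with EEDS (all genes, 7.27% and 7.85%) and 3 rose and 1 fell with helveticoside (all genes, 5.48% and 5.8%). NPC1, a cholesterol transporter, had log2 ratios of 1.5 and 2.01, SMPD1, acid sphingomyelinase, 1.73 and 1.53, and NEU1, a sialidase, 1.64 and 1.53, all with trends past the threshold in both series. Of 15 V-ATPase genes, which acidify the lysosome, 3 rose with EEDS and 1 with helveticoside, none fell, and their medians at the top doses were 0.66 and 0.71. The medians were 0.02 and 0.07 for the lysosomal list and -0.22 and -0.23 for the fusion list. Further cargo receptors and mitophagy genes had 0.01 and -0.01, and further autophagy factors 0.57 and 0.11. The mTORC1 and AMPK list had 0.31 and -0.03, and the transcription factors 0.31 and 0.45. Among 18 further autophagy factors, 3 rose and 1 fell with each agent. RUBCN, the inhibitor Rubicon, rose (1.35 and 1.36) and BCL2L11, the BH3 protein BIM, fell (-1.89 and -1.86) in both series. WDR45B had 1.49 and 1.13, and its trend passed the threshold with EEDS and not with helveticoside (adjusted p = 0.0535 by limma). Of 17 further cargo receptors and mitophagy genes, 1 rose and 3 fell with EEDS, and 2 rose and 2 fell with helveticoside, with CALCOCO1 falling in both (-1.46 and -1.56). Among 16 fusion genes, VPS33A of the HOPS complex fell in both series (-1.19 and -1.08) and RAB2A rose with EEDS (log2 ratio 0.998).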

How the data were processed

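Total RNA of A549 cells was measured on 8 one-colour Agilent human whole genome arrays. The authors deposited scanner files made with Agilent Feature Extraction, which hold background-subtracted processed intensities, not normalized between arrays, and a table of their own processed intensities on a linear scale. That table has array medians of 120.1 to 121.2 in the EEDS and 191.6 to 191.9 in the helveticoside series, so it appears normalized within each series, and its log2 values follow the scanned signal (r across probes 0.9955 to 0.9996), with its further steps unknown. The labels name Cy5 as the dye, while the deposited intensities are in the green columns. A genome build was not needed, and RefSeq (GRCh38.p14) was used for names and promoters. The study's methods select intensities 1.4 times above local background and then quantile normalize them. Here the 34105 probes with a usable spot on all arrays were quantile normalized first. That normalization was run over all 8 arrays, a choice the methods do not state. Genes at least 1.4 times above local background on any 1 array of a series were then kept. This limit left 19046 genes in the EEDS and 19056 in the helveticoside series, of 19056 matched, so it removed few or none. All 36 members passed, and 34 were well above background on all arrays.

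Outlier spots were left out, spots of a probe averaged, and the brightest of a gene's probes used (24827 probes matched to 1 gene, 4801 genes with more than 1). Ratios are log2 differences from the control of the series, called past 2-fold. Trends were fitted with limma 3.58.1 in R 4.3.3 (intercept and slope per series, eBayes with trend and robust), which assumes a straight line over dose steps, and were tested on simulated data. With 1 array per dose the residuals are departures from that line and not replicate error. The number of arrays limits the precision. Genes were described in full if over 2-fold at a top dose or past the trend threshold (17 members), and the others were given by role. For other lists at most 3 genes with the largest mean top-dose ratio were named. A blood cell marker of the original list is not reported here. The members and lists were chosen with earlier results of these data known.

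Alternatives were the scanned signal, normexp correction, 75th percentile scaling, the processed values of the authors, the mean of a gene's probes, the other series' control, a fold of 1.5, other filters, another eBayes setting, single arrays left out, and, chosen after seeing the data, normalization within each series.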

Additional observations from a re-analysis of the deposited data

How the results depend on the processing

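At 60 nM helveticoside 7 genes were over 2-fold higher (all genes, 10.8%), and 11 past 1.5-fold, where the share of all genes was not counted. The 3 genes over 2-fold lower at 60 nM became 1 with the scanned signal, with normexp correction, with the processed values of the authors and with the mean of a gene's probes, and 5 against the other series' control and past 1.5-fold. Of all genes 12.8% were lower in the main setting. With the settings that left 1 gene the shares were, in that order, 7.26%, 7.42%, 6.52% and 12.2%. For the other control and for 1.5-fold no share was counted. The 6 rising EEDS trends became 10 with 75th percentile scaling and 10 where only genes well above background were tested, which includes the same 6 genes each time. The share of all genes rising was 7.27% in the main setting, 9.49% with that scaling and 13.6% with that filter. The 2 falling EEDS trends became 1 with the mean of probes, where that of ATG10 was lost, and 4 with the authors' values. Of all genes 7.85% fell in the main setting, 7.33% with the mean of probes and 14.4% with the authors' values. The falling helveticoside trend became 0 with the authors' values and 2 with the stricter filter. Of all genes 5.8% fell in the main setting, 4.79% with the authors' values and 11.8% with that filter. With only the 4 arrays of a series all 4 counts were 0. Leaving out single arrays gave 0 to 8 rising and 0 to 1 falling EEDS trends, and 0 to 6 rising and 0 falling helveticoside trends. The cause was not tested. The slope difference was called for 0 genes in each setting.

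With 75th percentile scaling the median over all genes, near 0 in the main setting, was -0.20, -0.21 and -0.36 at the EEDS doses and 0.14, -0.12 and -0.18 at the helveticoside doses. Against the other series' control the log2 ratio of ATG4D was 2.85 at 20 µg/mL and 1.35 at 60 nM, and that of SQSTM1 2.21 and 0.35. No called value turned its direction. No paired analysis was possible because each group has 1 array. Depth of signal limits ATG14 and ATG4C, which were dim.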
